A study of Sus scrofa with 24 samples.

Results

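The genes of oxidative phosphorylation were followed in the subcutaneous fat of 24 Iberian piglets. The members were the 13 proteins encoded in mitochondrial DNA and the nuclear genes whose symbol fits the naming of subunits of respiratory complexes I to IV or of ATP synthase. The set is not complete: 14857 of 25880 identifiers had a symbol, and subunits named otherwise fell outside the rule. The rule matched 75 of 25880 gene identifiers in the count table, 13 mitochondrial and 62 nuclear. Of the nuclear members 28 belong by name to complex I, 4 to complex II, 6 to complex III, 13 to complex IV and 11 to ATP synthase. A further 8 symbols that fit the rule, among them NDUFA13, COX6C and UQCRB, were not analysed here.

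The piglets were male Iberian pigs, 1 per litter and 6 per maternal diet, killed at 33 days of age, 5 days after weaning. From day 85 of gestation to weaning at day 28 the sows were fed 1 of 4 diets. To the C feed 30 mg/kg of vitamin E was added, as α-tocopheryl acetate, and to the VE feed 100 mg/kg. The HT feed was given 30 mg/kg with hydroxytyrosol, an antioxidant phenol of the olive, at 1.5 mg/kg, and the VEHT feed 100 mg/kg with the same hydroxytyrosol dose. These are added amounts. By the study's feed analysis the total vitamin E of every feed was above the added amount, and the high and low vitamin E feeds were closer in the total than in what was added. All 4 groups thus had added vitamin E, and only the mothers were fed the diets. The question was whether the maternal antioxidants went with a different transcript level of the respiratory chain in the offspring's fat.

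Complexes I and II pass electrons from NADH and succinate to coenzyme Q, complex III passes them on to cytochrome c, and complex IV, cytochrome c oxidase, hands them to oxygen. Complexes I, III and IV pump protons across the inner mitochondrial membrane, and ATP synthase, complex V, uses the gradient to make ATP. The subunits come from 2 genomes: part of the core of complexes I and III, the catalytic core of complex IV and part of the membrane sector of ATP synthase are made in the mitochondrion, while complex II is wholly nuclear. Several subunits of complex IV exist in pairs of isoforms, one made in most tissues and one made mainly in heart and skeletal muscle. White fat has few mitochondria beside skeletal muscle, which is rich in them.

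The 13 mitochondrial genes lie close together on the mitochondrial chromosome, and neighbours overlap. The overlaps are shown because a read that falls in one cannot be given to a single gene. The first stretch is the end of ATP8 and the start of ATP6, both subunits of the membrane sector of ATP synthase, read on the + strand of Sscrofa11.1 (RefSeq, chrMT:9100-9182), with the 43 shared bases in capitals.

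ATP8 and ATP6: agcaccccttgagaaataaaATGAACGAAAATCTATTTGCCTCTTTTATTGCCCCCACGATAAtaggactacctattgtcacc

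The second is the junction of ND4L and ND4, subunits of complex I (chrMT:11339-11385, + strand), with 7 shared bases in capitals, and the third that of ND5 and ND6, complex I subunits read from opposite strands (chrMT:14719-14775, printed on the + strand), with 17 shared bases in capitals.

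ND4L and ND4: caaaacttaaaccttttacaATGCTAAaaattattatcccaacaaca

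ND5 and ND6: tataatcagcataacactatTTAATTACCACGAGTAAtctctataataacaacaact

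Neither the strand setting nor the rule for reads that span 2 genes is given in the sources used here, so reads from ND6 (chrMT:14739-15266, - strand) and from the transcript opposite to it cannot be told apart. ATP8 and ND4L share bases with a neighbour, so their levels are uncertain against those of ATP6 and ND4.

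Per kilobase of RefSeq transcript, the median level over the 24 libraries of the mitochondrial members was 3886 CPM per kb (CPM, counts per 1000000 gene counts of a library), between 136 for ND6 and 18607 for COX3. COX1, COX2 and COX3, the catalytic core of complex IV, stood at 16176, 10828 and 18607 CPM per kb, and CYTB, the mitochondrial subunit of complex III, at 6147 CPM per kb. ATP6 was at 15566 CPM per kb and the overlapping ATP8 at 1140 CPM per kb. The 48 nuclear members with a RefSeq transcript had a median of 93.3 CPM per kb, between 13.4 for NDUFA5, a complex I subunit (chromosome 18), and 269 for COX5B, a structural subunit of complex IV. In complex V, ATP5F1A, the α subunit of the catalytic head (chromosome 1, 95738789 to 95750835), reached 259 CPM per kb. The 2 succinate dehydrogenase subunits SDHA, which binds the flavin, and SDHB, which holds the iron-sulphur clusters, were at 80.1 and 130 CPM per kb. NDUFB1, an accessory subunit of the membrane arm of complex I, was at 26.6 CPM per kb. Nuclear lengths were those of the longest RefSeq transcript of a gene, 2744 bases for NDUFA5 and 484 for NDUFB1. The order of nuclear members per kb depends on that choice.

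The libraries held 36614639 to 61919211 gene counts. The tissue was labelled adipose, and each of 9 adipocyte markers was above 0 in every library, but skeletal muscle transcripts were present in very unequal amounts. The 7 measured muscle markers (ACTA1, CKM, TNNC1, TNNC2, TNNI2, TNNT1 and TNNT3) summed to between 2.53 CPM and 37670 CPM. Per diet the sum ran from 8.42 to 22174 CPM (C), 2.53 to 21162 CPM (VE), 183 to 33577 CPM (HT) and 18.0 to 37670 CPM (VEHT), and TNNT3 was at 0 in 1 library (VE piglet G085). Another 3 libraries, G041 and G047 of C and G141 of VEHT, were rich in immune transcripts: their 9 macrophage markers averaged 8.98, 8.88 and 8.51 log2 CPM. The macrophage markers summed to between 252 and 5950 CPM for VEHT, 223 and 866 for HT, 147 and 1295 for VE, and 225 and 7874 for C. In such bulk samples fewer cells of a type and less RNA per cell cannot be told apart.

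The share of gene counts that fell on the 13 mitochondrial genes had a median of 6.70% among C piglets, with 6.05% the lowest and 22.6% (G025) the highest, while no other C library was above 6.996%. Among VE piglets it ran from 6.98% through a median of 7.88% to 16.4% (G179). HT piglets spanned 5.21% to 15.4% (G121) around a median of 9.08%, and VEHT piglets 7.85% to 15.8% (G208) around 11.4%. Means were 11.5% ± 3.36 (VEHT), 9.66% ± 3.69 (VE), 9.53% ± 3.43 (HT) and 9.29% ± 6.55 (C) (SD, n = 6 each). The ranges of the 4 diets overlapped, and the C mean was 6.62% without G025. The Wilson 95% interval of the share of G025 was 22.64% to 22.66%, and such intervals cover counting error only.

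The 62 nuclear members together made up 0.745% ± 0.296 of gene counts in VEHT, 0.673% ± 0.200 in VE, 0.651% ± 0.259 in C and 0.615% ± 0.173 in HT. The share was between 0.452% (VEHT piglet G148) and 1.15% (C piglet G025). The mitochondrial mean exceeded the nuclear mean by 5.50 ± 0.30 log2 CPM in VEHT, 5.48 ± 0.31 in HT, 5.36 ± 0.12 in VE and 5.22 ± 0.41 in C. This distance between the genomes was smallest in C piglets G047 (4.75) and G041 (4.85) and largest in VEHT piglet G148 (6.01). The plot of shares by library shows the same few libraries high for both genomes.

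**Figure D1:**
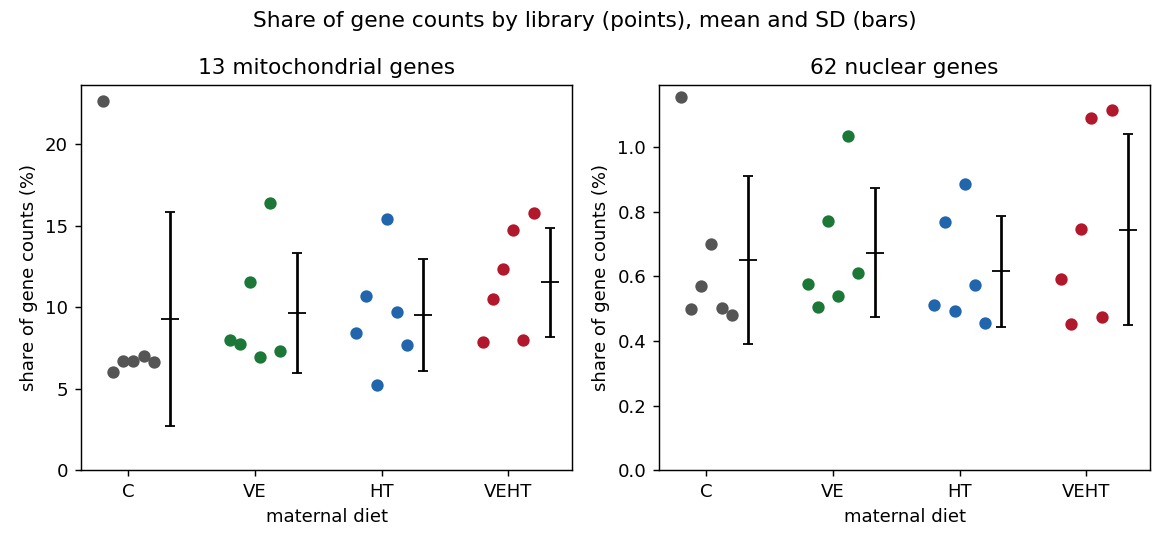
Share of gene counts (percent) taken by the 13 mitochondrial and the 62 nuclear members, by maternal diet. Points are libraries, bars the mean and SD of 6 piglets. C piglet G025 lies at 22.6% in the left panel and 1.15% in the right, and the diets overlap in both.

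All 75 members passed the filter on low counts, in which genes at 0 in 75% or more of the libraries are dropped. COX6B2, the testis form of a peripheral complex IV subunit, was at 0 in 8 of 24 libraries and at most at 0.498 CPM. Over the 24 libraries the SD of log2 CPM had a median of 0.55 for mitochondrial and 0.47 for nuclear members, against 0.67 for all 17602 genes. The median member's highest library was 4.42 times its lowest in the mitochondrial set and 3.15 times in the nuclear set. NDUFS5, an accessory complex I subunit, varied least (SD 0.17, 51.7 to 80.3 CPM), followed by COX7A2 (SD 0.27) and NDUFB10 (SD 0.29), also of complex I. Apart from COX6B2 (SD 1.79), the largest spread was that of the muscle isoforms COX7A1 (SD 1.26) and COX6A2 (SD 1.21). Among mitochondrial genes ND6 spread most, from 30.7 CPM to 357 CPM in C piglet G025.

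Of the total variance of log2 CPM, the share between the 4 diet means had a median of 11.7% over mitochondrial members and 5.79% over nuclear members, and the highest was 28.4% for COX7A2. Means of 4 groups of 6 differ by chance too, so part of each share would be there without any diet effect. Neither that part nor the share over all genes was computed, and these shares are not a measure of what the diets did.

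In the pairwise comparisons no member was called at a q of at most 0.10 with a fold change of at least 1.5 by edgeR's quasi-likelihood test, and DESeq2 and limma voom called 0 members as well. The background was 0% of genes called by edgeR and by limma voom in each of the 6 pairs. By DESeq2 it was 5.01% of 17532 genes for C vs VE, 4.24% for C vs HT and 0.00568% for C vs VEHT. It was 1.46% for VE vs VEHT, 0.598% for VE vs HT and 0.681% for HT vs VEHT. The factorial model gave 0 members for vitamin E, for hydroxytyrosol and for their interaction with edgeR, DESeq2 and limma voom. For the interaction edgeR called 3.95% of 17602 genes, DESeq2 7.13% and limma voom 0 genes. For vitamin E and hydroxytyrosol edgeR called 0%, DESeq2 0.0511% and 0.0284%, and limma voom 2 genes and 0 genes. At an unadjusted p under 0.05, edgeR had 0 members in C vs VE, C vs VEHT, VE vs VEHT, HT vs VEHT and for vitamin E. It had 2 in VE vs HT, 1 in C vs HT, 1 for hydroxytyrosol and 1 for the interaction. Over all genes the same limit was passed by 12.1% for C vs VE, 12.6% for C vs HT and 2.1% for C vs VEHT. It was passed by 9.04% for VE vs VEHT, 9.52% for VE vs HT and 7.89% for HT vs VEHT. It was passed by 3.93% for vitamin E, 6.22% for hydroxytyrosol and 14.8% for the interaction. In no pair of diets was there a member whose ranges did not overlap (0 of 75), against 0.456% of all genes for C vs VE, 0.24% for C vs HT, 0.102% for C vs VEHT, 0.171% for VE vs VEHT, 0.356% for VE vs HT and 0.12% for HT vs VEHT.

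The log2 fold changes of nuclear members, given as the first diet over the second, had a median of -0.07 for C vs VE, 0.10 for C vs HT and -0.32 for C vs VEHT. The median was -0.26 for VE vs VEHT, 0.15 for VE vs HT and -0.41 for HT vs VEHT. The mitochondrial medians were -0.11, -0.08, -0.42, -0.32, 0.00 and -0.30 in the same order. Over all genes the medians lay between -0.03 and 0.03. A single member's standard error had a median between 0.27 and 0.37 for nuclear and between 0.32 and 0.48 for mitochondrial members. In C vs VEHT 69 of 75 members were on the negative side, against 8369 of all 17607 genes. In HT vs VEHT it was 73, against 8656 of 17469, and in VE vs VEHT 71, against 9383 of 17525. No such value differed from 0 by the test. These 3 comparisons share the VEHT libraries. Other pairs were one-sided too: 58 members were below 0 in C vs VE (8174 of 17532 genes). Above 0 were 57 in VE vs HT (8105 of 17397) and 47 in C vs HT (9112 of 17468). The members vary together, so their signs are not separate observations. Single libraries set much of these medians. Without C piglet G025 the mitochondrial median was -0.63 for C vs VE, -0.65 for C vs HT and -0.98 for C vs VEHT, and the nuclear median was -0.34, -0.19 and -0.60. Without VE piglet G179 the C vs VE medians were 0.14 for both genomes. In VE vs HT the median was -0.25 for mitochondrial and -0.08 for nuclear members without G179, and 0.22 and 0.29 without HT piglet G121. Without G179 the medians were -0.55 and -0.47 in VE vs VEHT. Without G121 the medians were 0.15 and 0.25 in C vs HT and -0.59 for both genomes in HT vs VEHT. Without VEHT piglet G164 the mitochondrial median was -0.13 in HT vs VEHT and -0.17 in VE vs VEHT. Without VEHT piglet G208 the nuclear median was -0.10 in C vs VEHT, -0.08 in VE vs VEHT and -0.22 in HT vs VEHT, and the mitochondrial median -0.25 in C vs VEHT.

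For the factorial terms the nuclear median was 0.24 for vitamin E, 0.09 for hydroxytyrosol and 0.33 for the interaction, and the mitochondrial median 0.22, 0.20 and 0.17. Members above 0 numbered 73, 58 and 71 of 75 in that order, against 8214, 8739 and 9108 of 17602 genes. Single libraries set much of these values too. Without G025 the mitochondrial median was -0.37 for the interaction, 0.48 for hydroxytyrosol and 0.49 for vitamin E, and the nuclear median 0.05, 0.26 and 0.37. Without G179 the mitochondrial median was 0.44 for the interaction and 0.09 for vitamin E, and the nuclear median 0.53 and 0.14. For hydroxytyrosol the mitochondrial median was 0.10 without G121 and the nuclear median 0.0020 without G208. The muscle marker means were 7.51 ± 4.18 log2 CPM for VEHT, 7.13 ± 3.51 for HT, 5.96 ± 5.02 for VE and 5.13 ± 4.19 for C, and edgeR called 0 of the 7 markers in the 9 comparisons, with 0 at an unadjusted p under 0.05. With that mean as a covariate, an alternative chosen after seeing the data, the nuclear median was -0.02 in C vs VEHT, -0.03 in VE vs VEHT and -0.31 in HT vs VEHT. The mitochondrial median was -0.16, -0.16 and -0.26. Of the other pairs, C vs HT had a nuclear median of 0.29 and a mitochondrial one of 0.15, VE vs HT 0.28 and 0.14, and C vs VE 0.00 and -0.11. The nuclear median was 0.35 for the interaction, 0.16 for vitamin E and -0.14 for hydroxytyrosol, and the mitochondrial median 0.12, 0.19 and -0.01. The sign turned for hydroxytyrosol in both genomes, for the mitochondrial median of C vs HT, and for medians near 0 (nuclear in C vs VE, mitochondrial in VE vs HT). No member was called in that fit either. Over all genes it called 0 in each pair, 0 for the interaction, and 1 each for vitamin E and hydroxytyrosol. At an unadjusted p under 0.05 it had 8 members in VE vs HT, against 8.92% of all genes, and 4 in HT vs VEHT, against 8.19%. It had 0 members in the other comparisons, against 8.81% of all genes for C vs VE, 7.14% for C vs HT, 1.99% for C vs VEHT and 8.43% for VE vs VEHT. The background was 4.37% for vitamin E, 5.25% for hydroxytyrosol and 14.5% for the interaction.

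Markers of immune cells moved with some of these comparisons. For the interaction, where 3.95% of all genes were called, edgeR called 7 of 9 macrophage, 2 of 4 T cell and 3 of 6 B and plasma cell markers, all above 0, and LPL, 1 of 9 adipocyte markers, below 0. In the pairs and for the main effects 0 of these markers were called. At an unadjusted p under 0.05 C exceeded VE in 5 of 9 macrophage, 4 of 4 T cell and 4 of 6 B and plasma cell markers, and was lower in 3 of 9 adipocyte markers. C exceeded HT in 9 macrophage, 1 T cell and 4 B and plasma cell markers. VEHT exceeded HT in the same numbers, and VE in 6, 4 and 4, with 3 adipocyte markers lower in VEHT than in VE. Without G041, G047 and G141, an alternative chosen after seeing the data, 0 members were called. The share of all genes called in that fit was not taken, so this count cannot be set against a background. The mitochondrial median was then 0.47 for the interaction, 0.11 for C vs VE, 0.09 for C vs HT, -0.29 for C vs VEHT, -0.40 for VE vs VEHT and -0.39 for HT vs VEHT. The nuclear median was 0.37, -0.07, 0.06, -0.35, -0.31 and -0.44 in that order. The part of the immune markers in the members' values was not tested otherwise.

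**Figure D2:**
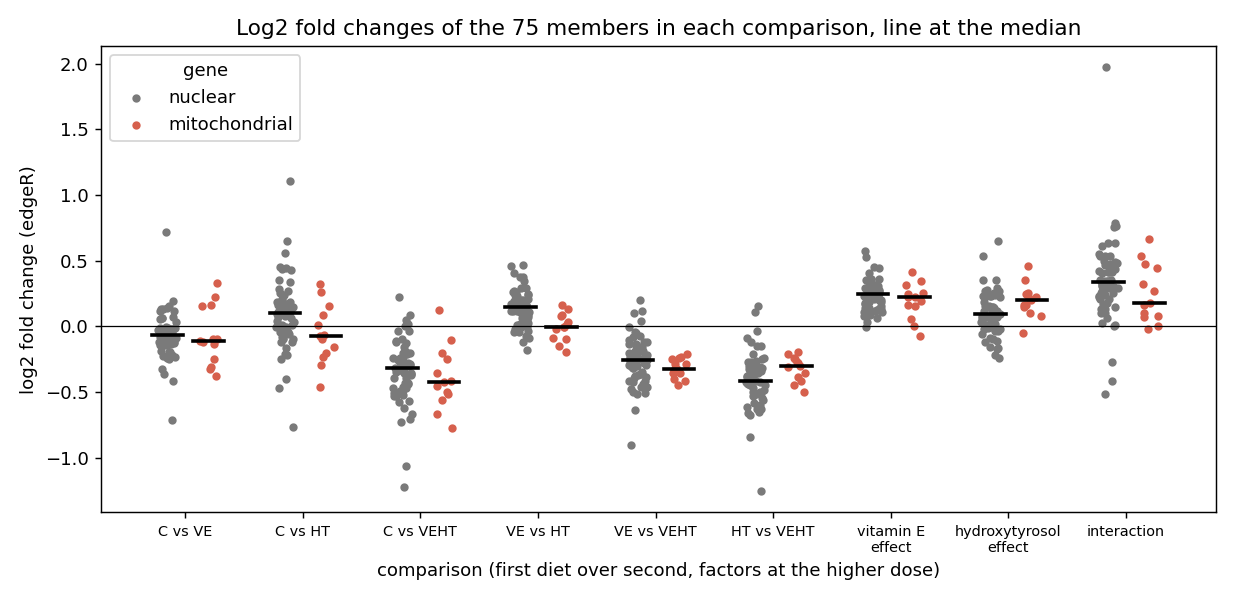
Log2 fold change of each of the 75 members in 9 comparisons (edgeR), nuclear members in grey and mitochondrial members in red, with a black line at each median. Pairs are the first diet over the second. Points lie mostly below 0 in the 3 comparisons against VEHT and in C vs VE. They lie mostly above 0 in VE vs HT, in C vs HT and for the factorial terms. None passed the test.

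In complex I, the NADH dehydrogenase, ND3, a small mitochondrial subunit, read 745 CPM at lowest, 990 at the median and 2309 at highest in C, against 986, 1742 and 2472 CPM in VEHT. C piglets G041, G047 and G117 were below every VEHT library, and the other C piglets lay within the VEHT range. The log2 fold change of ND3 was -0.67 ± 0.39 (SE) in C vs VEHT (edgeR, q = 1.0) and -0.38 ± 0.35 in C vs VE (q = 0.74). Without G025 these were -1.03 and -0.72, and without G179 the latter was -0.09. ND2, a mitochondrial core subunit of the proton-pumping arm, had -0.78 ± 0.48 in C vs VEHT (q = 1.0), and -1.33 without G025. NDUFS4, an accessory subunit that completes the NADH-binding arm, read 35.05 to 80.7 CPM among C piglets (median 54.2), 53.5 to 88.4 for VE (65.8), 50.7 to 94.0 for HT (75.8) and 29.8 to 93.6 for VEHT (60.2). Its lowest libraries were VEHT piglet G141 and C piglets G041 and G047, those rich in immune transcripts. The log2 fold change of NDUFS4 was -0.47 ± 0.24 in C vs HT (edgeR, q = 0.44). NDUFA2, an accessory subunit of the matrix arm, had 0.64 ± 0.33 for the interaction (edgeR, q = 0.38). NDUFC2, of the membrane arm, had the smallest p for vitamin E among the members above 0 (0.31 ± 0.17, edgeR q = 1.0). NDUFB4, an accessory subunit of the membrane arm, had 0.35 ± 0.23 for hydroxytyrosol (edgeR, q = 0.82), and 0.22 without VEHT piglet G164.

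In complexes II and III no member reached an unadjusted p under 0.05. SDHA read 142 to 403 CPM over all libraries, and the 4 nuclear members of complex II had log2 fold changes between -0.36 and 0.28 in the pairs. UQCRC1, a core protein of complex III, read 111 to 298 CPM. UQCR11, a small subunit of complex III, read 21.8 to 114 CPM, and its lowest, median and highest libraries were 21.8, 30.1 and 99.0 CPM in C and 25.9, 47.9 and 114 CPM in VEHT, with overlap. The 6 nuclear members of complex III had a median log2 fold change of -0.42 in C vs VEHT and -0.53 in HT vs VEHT, the lowest of the 5 complexes in both. CYTB read 3720, 5168 and 16309 CPM (lowest, median and highest) in C and 5322, 8825 and 13857 CPM in VEHT, overlapping ranges.

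Complex IV held the members with the smallest p. COX7A2, the form of subunit VIIa found in most tissues (chromosome 1, 90696746 to 90703407), read 43.6, 49.0 and 76.7 CPM (lowest, median and highest) for C, 44.7, 46.1 and 54.4 for VE, 32.5, 39.3 and 48.2 for HT and 33.5, 47.2 and 60.0 for VEHT. The HT libraries G008, G012, G121 and G196 were lower than every C and VE library, and the other HT libraries lay within their range. The log2 fold change of COX7A2 was 0.43 ± 0.18 for C vs HT (edgeR, q = 0.35), 0.29 ± 0.10 for VE vs HT (q = 0.49) and 0.48 ± 0.23 for the interaction (q = 0.33). All 3 had an unadjusted p under 0.05, and none passed the adjusted threshold. Without C piglet G047, the highest library, the value of COX7A2 was 0.28 for C vs HT. COX8A, a small subunit of complex IV in most tissues, read 83.1 to 104 CPM in VE and 47.9 to 94.7 CPM in HT, with a log2 fold change of 0.30 ± 0.13 in VE vs HT (edgeR, q = 0.515). COX7A2L, a relative of subunit VIIa that helps join complexes III and IV, had -0.22 ± 0.10 for hydroxytyrosol (edgeR, q = 0.79), and both also had an unadjusted p under 0.05.

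In complex V, ATP5MC3, one of the genes for the proton-carrying c subunit, read 58.2, 91.2 and 191 CPM (lowest, median and highest) in C and 54.7, 65.8 and 99.7 CPM in HT. The ranges overlapped, with C piglets G025, G041 and G047 above every HT library. The log2 fold change of ATP5MC3 was 0.65 ± 0.35 in C vs HT (edgeR, q = 0.45), and 0.37 without G025. ATP5MC1, a second gene for the same protein, read 35.7 to 254 CPM, and ATP5MK, a small subunit that stabilises the dimer, 30.7 to 85.6 CPM. ATP8 had the smallest p below 0 in VE vs HT (log2 fold change -0.20 ± 0.30, edgeR q = 0.835), and read -0.44 without G179 and -0.02 without G121.

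The members varied together across the 24 libraries. Across pairs of mitochondrial members Pearson's r had a median of 0.906 (78 pairs, lowest 0.765), across pairs of nuclear members 0.834 (1891 pairs, 267 of them negative) and between the genomes 0.728 (806 pairs). Genes of 1 library share its depth and tissue makeup, so these are descriptions of the same 24 animals. The lowest medians were those of complex IV genes. COX7A2L and COX6A1 had a median r of -0.69 and -0.65 with the nuclear members and -0.80 and -0.73 with the mitochondrial members. Levels were scaled to total gene counts alone, here and against the muscle markers below. A library in which some genes take more of the total thus reads lower in the others. The part of this scaling in the negative r was not tested.

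The members' levels were then compared with those of the muscle markers. Each of 17602 genes was set against the mean log2 CPM of the 7 muscle markers in 24 libraries, with p from 100000 permutations (two-sided) and q over all of these genes. All 13 mitochondrial members and 51 of 62 nuclear members had a positive r at a q of at most 0.10, against 7.95% of all genes. A negative r at that limit was found for 3 nuclear members, against 16.1% of all genes. The median r was 0.687 over mitochondrial and 0.676 over nuclear members and -0.115 over all genes. The medians were 0.678 and 0.692 within diets, 0.723 and 0.771 without the 2 libraries farthest from the median muscle level, and 0.655 and 0.746 without G041, G047 and G141. The markers' part in the differences between diets was tested only through the covariate fit given above. C piglet G117 had a muscle marker mean of 9.42 log2 CPM with a nuclear member mean of 5.90, so a high marker mean did not go with a high member mean in every library. The 7 markers were uneven in G117. Against VEHT piglet G162 it was higher in ACTA1 (7920 against 4882 CPM), TNNC2, TNNI2 and TNNT3. It was lower in CKM (592 against 3727 CPM), TNNC1 (177 against 1042) and TNNT1 (263 against 1317). Within C the relation was weaker for many nuclear members: UQCRC1, with r = 0.592 and rho = 0.652 over all libraries (permutation p = 0.0027 and 0.00089, q = 0.022 and 0.0081), had r = 0.024 within C, 0.795 within VE, 0.914 within HT and 0.828 within VEHT.

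**Figure D3:**
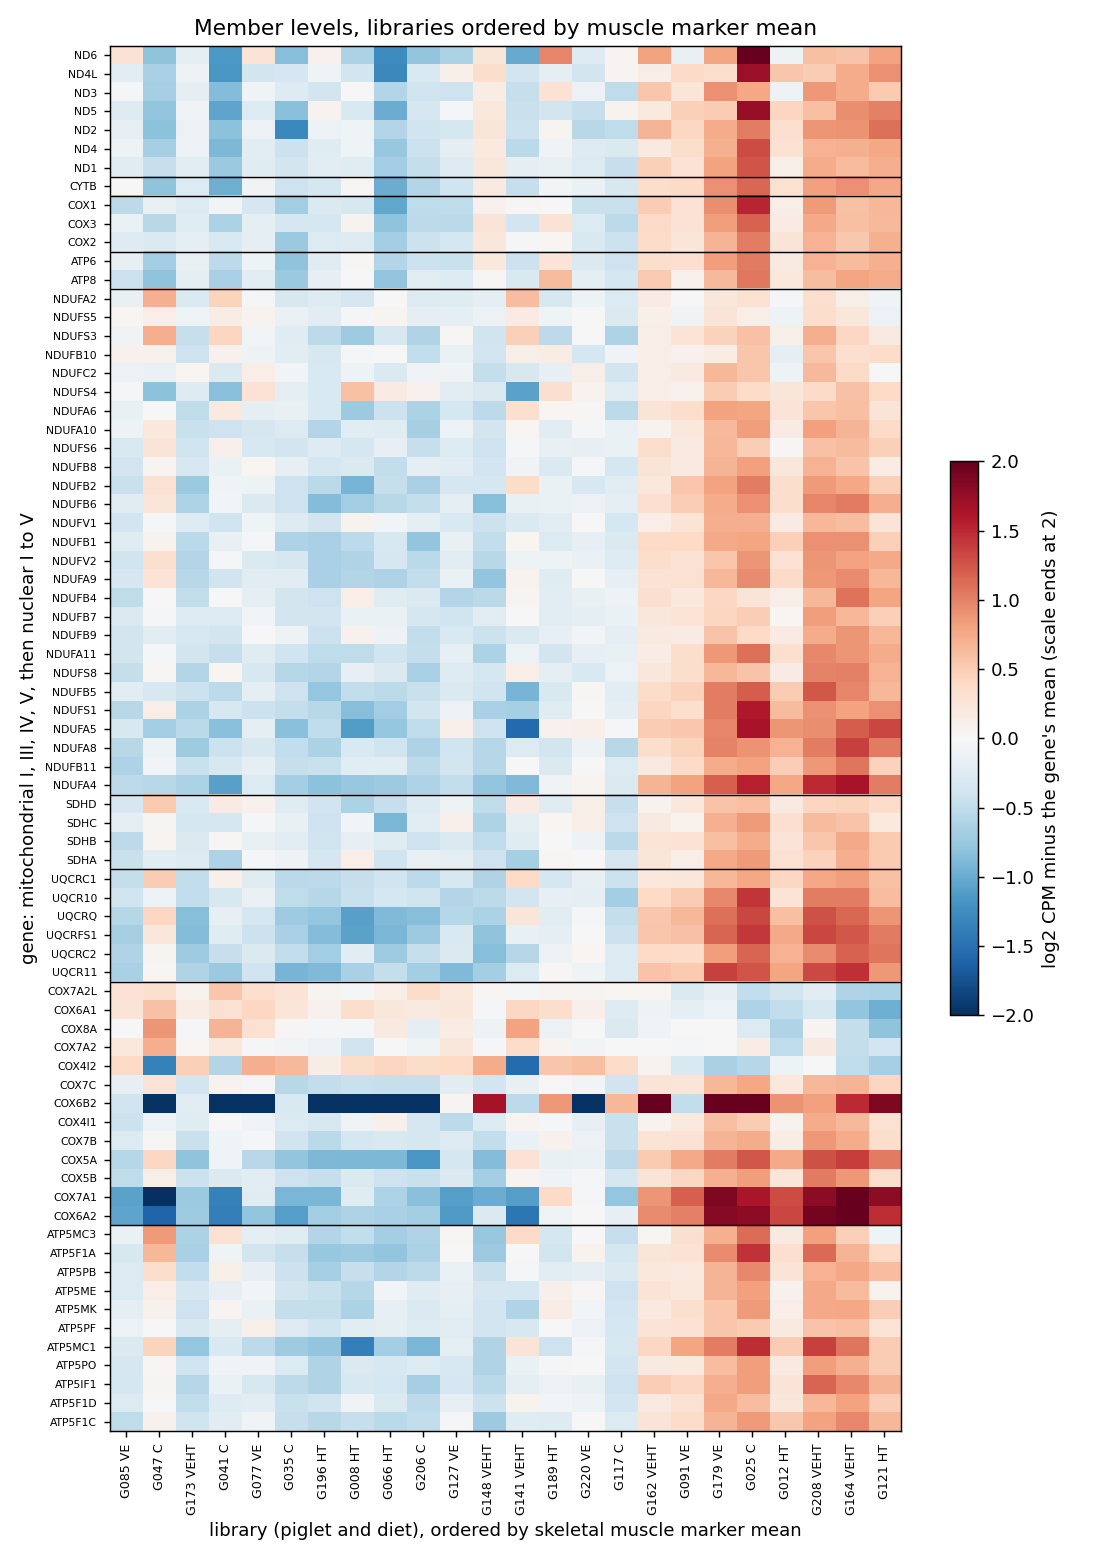
Log2 CPM of members minus their mean over 24 libraries (colour, ends of the scale at -2 and 2), libraries ordered from left to right by skeletal muscle marker mean and genes grouped by genome and complex. Most rows turn red at the right end, from VEHT piglet G162 to HT piglet G121, while rows such as COX7A2L, COX6A1, COX8A, COX4I2 and COX7A2 do not.

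The isoforms COX6A2 and COX6A1 of complex IV went opposite ways along the muscle markers. COX6A2, the heart and skeletal muscle form of subunit VIa, read 22.9, 37.8 and 240.0 CPM (lowest, median and highest) for C, 31.9, 54.9 and 246 for VE, 42.9, 55.8 and 194.6 for HT and 25.5, 95.1 and 297 for VEHT. Its high libraries were G025 (C), G091 and G179 (VE), G012 and G121 (HT) and G162, G164 and G208 (VEHT). COX6A1, the form of most tissues (chromosome 14, 40408600 to 40410810), read 83.5, 148.3 and 194 CPM in C and 74.6, 123 and 172 CPM in VEHT, and its lowest library in each diet was one of those in which COX6A2 was high. Against the muscle marker mean COX6A2 had r = 0.854 and rho = 0.874, and COX6A1 had r = -0.763 and rho = -0.806 (permutation p = 1e-05, the smallest that the permutations can give, q = 0.00039 for r in both). Within C, VE, HT and VEHT r was 0.893, 0.806, 0.963 and 0.812 for COX6A2 and -0.979, -0.788, -0.797 and -0.696 for COX6A1. Without the 2 farthest libraries r was 0.871 and -0.768.

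COX7A1, the heart and skeletal muscle form of subunit VIIa that brown fat also makes (chromosome 6, 45519225 to 45520721), read 9.44, 22.4 and 127.4 CPM for C, 19.2, 37.8 and 150 for VE, 21.8, 44.4 and 142 for HT and 19.2, 50.1 and 187 for VEHT. Its high libraries were those of COX6A2. COX7A1 had r = 0.838 and rho = 0.802 (permutation p = 1e-05, q = 0.00039), while its counterpart COX7A2 had r = -0.454 and rho = -0.334 (permutation p = 0.025 and 0.11, q = 0.102 and 0.26) and r = -0.248 without the 2 farthest libraries. Within C, VE, HT and VEHT r was 0.845, 0.792, 0.969 and 0.830 for COX7A1. COX7A2L had r = -0.772 and rho = -0.863 (permutation p = 1e-05, q = 0.00039), and -0.796, -0.847, -0.836 and -0.660 within the diets. COX8A had r = -0.574 and rho = -0.570 (permutation p = 0.0025 and 0.0045, q = 0.021 and 0.026). COX4I1, the form of subunit IV in most tissues and the nuclear complex IV gene with the highest mean log2 CPM, had r = 0.648 and rho = 0.659 (permutation p = 0.00065 and 0.00075, q = 0.0084 and 0.0072). COX4I2, the form of subunit IV known from lung and raised by low oxygen, had r = -0.189 and rho = -0.374 (permutation p = 0.38 and 0.073, q = 0.61 and 0.20), and r = -0.672 without G041, G047 and G141.

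**Figure D4:**
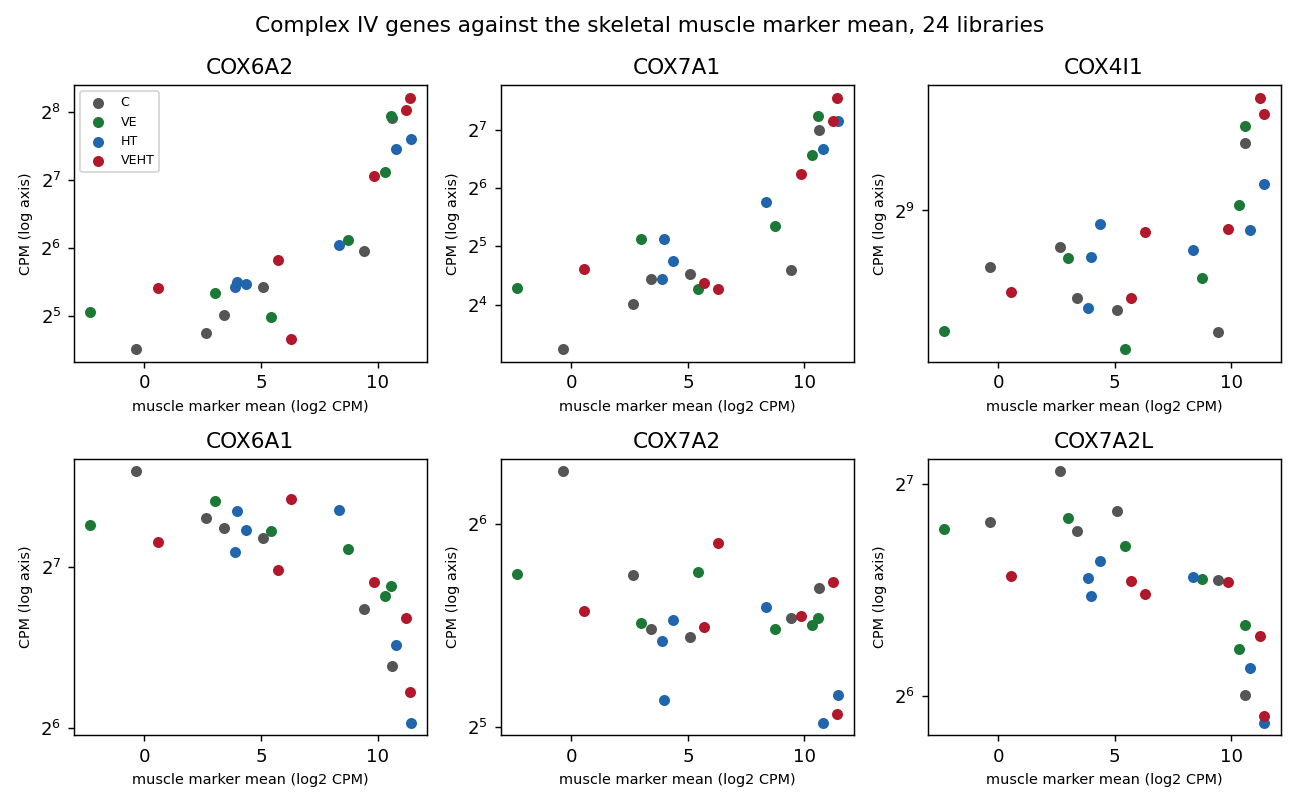
CPM (log axis) of 6 complex IV genes against the mean log2 CPM of 7 skeletal muscle markers, 24 libraries coloured by maternal diet. COX6A2 and COX7A1 rise with the muscle markers (r = 0.854 and 0.838) and COX6A1 and COX7A2L fall (r = -0.763 and -0.772), with all 4 diets along each course.

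Counted against its partner, COX6A2 made up 10.6% to 79.9% of the COX6A counts and COX7A1 10.96% to 84.8% of the sum of COX7A1 and COX7A2. These are shares of counts between transcripts of unequal length and serve to compare libraries. The COX6A2 share was 45.2% ± 27.2 for VEHT, 39.6% ± 24.0 for HT, 35.1% ± 21.5 for VE and 29.4% ± 23.7 for C (SD, n = 6). The COX7A1 share was 51.6% ± 25.01, 54.8% ± 19.3, 48.0% ± 20.7 and 34.5% ± 20.2 in the same order. The lowest shares of both were in C piglet G047 and the highest in VEHT piglet G164, and the ranges of the diets overlapped. In the edgeR fits COX6A2 had a log2 fold change of -1.06 ± 0.80 in C vs VEHT (q = 1.0) and COX7A1 -1.22 ± 0.82 (q = 1.0). With the muscle marker mean as covariate they were -0.40 and -0.50.

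**Figure D5:**
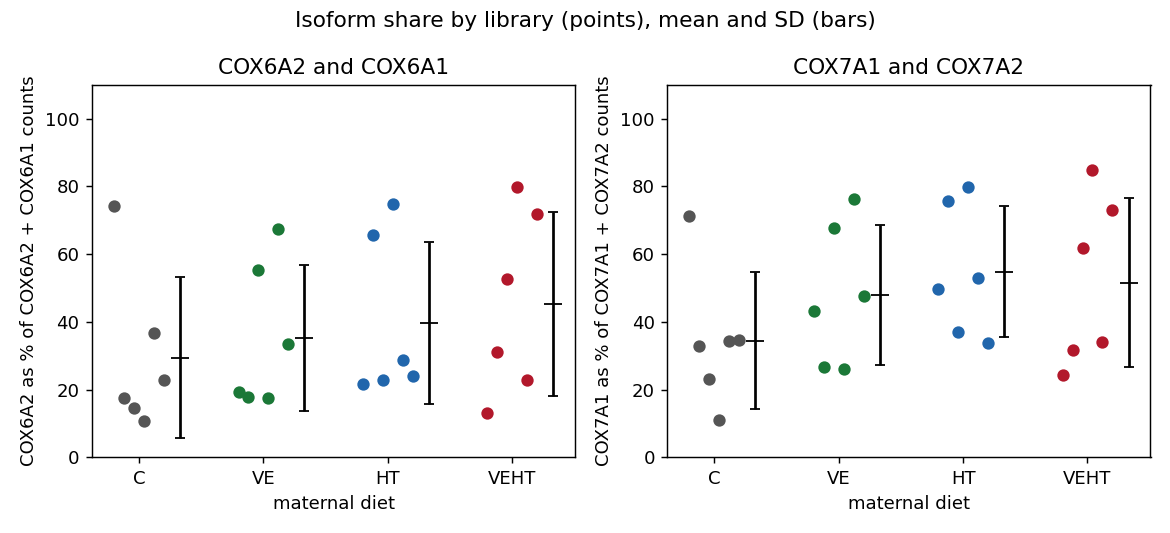
Share of COX6A2 in the summed counts of COX6A2 and COX6A1 (left) and of COX7A1 in those of COX7A1 and COX7A2 (right), in percent, by maternal diet. Points are libraries and bars the mean and SD of 6 piglets. Shares run from 10.6% to 79.9% and from 10.96% to 84.8%, with high and low libraries in every diet.

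For a further 8 nuclear members r with the muscle markers missed a q of 0.10, among them NDUFA2, NDUFB10, NDUFS3, NDUFS5, COX4I2, COX7A2 and ATP5MC3. NDUFB10 passed that limit by rank: it had r = 0.453 and rho = 0.528 (permutation p = 0.027 and 0.00955, q = 0.108 and 0.046), and r = 0.633 without the 2 farthest libraries. In NDUFA2 the 3 libraries rich in immune transcripts were the highest of all 24 (40.9 to 49.0 CPM). It had r = 0.081 over all 24 libraries (rho = 0.240, permutation p = 0.71 and 0.26, q = 0.85 and 0.46) and 0.580 without G041, G047 and G141. NDUFS3, a core subunit of the matrix arm of complex I, had r = 0.292 (rho = 0.350, permutation p = 0.165 and 0.094, q = 0.365 and 0.235) and 0.585 without them. NDUFA4, named for complex I but found as a subunit of complex IV, had r = 0.796 (rho = 0.760, permutation p = 1e-05 and 5e-05, q = 0.00039 and 0.0011). Among the mitochondrial members ATP8 had the highest r at 0.766 (rho = 0.781, permutation p = 4e-05 and 3e-05, q = 0.0012 and 0.00073). ND6 had the lowest at 0.530 (rho = 0.551, permutation p = 0.0081 and 0.0061, q = 0.048 and 0.033), with -0.047 within VE.

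Since most members varied together, windows from 250 bases before to 50 bases after the RefSeq start were searched on both strands in 48 nuclear members and in 19556 genes. The motif of NRF1, a regulator of nuclear respiratory genes, was in 9 of the 48 windows (18.8%) against 6.31% of all windows. CCGGAAG, bound by ETS factors such as GABPA, was in 16 (33.3%) against 2151 of the 19556. TCAAGGTCA of the ERR receptors was in 2 (4.17%) against 0.358%, AAGATGGCG of YY1 in 3 (6.25%) against 1.47%, the motif of MEF2 in 1 (2.08%) against 2.68%, and the E-box CAGCTG in 4 (8.33%) against 16.6%. A match is a description of letters. Excerpts before the start of 3 members are shown so that the matched letters can be read: COX7A2 was not called against the muscle markers and the other two had a positive r at a q of at most 0.10. They are given on the strand of the gene, with the NRF1 motif in capitals. The COX7A2 stretch lies at chr1:90696707-90696745 (+), that of COX5B at chr3:56632242-56632291 (-) and that of NDUFS6, a complex I subunit, at chr16:79000040-79000089 (-).

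COX7A2: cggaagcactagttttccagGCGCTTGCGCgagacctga

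COX5B: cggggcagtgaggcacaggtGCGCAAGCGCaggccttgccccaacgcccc

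NDUFS6: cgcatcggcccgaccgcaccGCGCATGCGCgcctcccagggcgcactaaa

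In COX7A2 the motif begins 19 bases before the start and reads on the opposite strand, and in NDUFS6 it begins 68 bases before the start. The windows of COX7A2 and COX5B also held CCGGAAG, and that of COX6A1 held CCGGAAG without the NRF1 motif.

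Genes around the respiratory chain were read from 6 lists with 114 entries, of which 102 were tested: assembly factors, other subunits and electron carriers, regulators of mitochondrial biogenesis, upkeep of mitochondrial DNA and RNA, the TCA cycle and coenzyme Q synthesis. edgeR called 0 of the 102 in all 9 comparisons. At an unadjusted p under 0.05 there were 4 for C vs VE, 2 for C vs HT, 2 for VE vs VEHT and 3 for VE vs HT, and 0 for C vs VEHT and HT vs VEHT. The count was 1 for vitamin E, 5 for hydroxytyrosol and 1 for the interaction. Over all genes the shares were those given above for the members, from 2.1% for C vs VEHT to 14.8% for the interaction, with 12.1% for C vs VE, 9.52% for VE vs HT and 6.22% for hydroxytyrosol.

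Among 35 assembly factors SCO1, which delivers copper to complex IV, read 17.3 ± 2.63 CPM in C and 12.8 ± 2.49 CPM in VE (SD, n = 6), a log2 fold change of 0.42 ± 0.14 (edgeR, q = 0.31). COX19, also of copper delivery, had -0.66 ± 0.25 for the interaction (edgeR, q = 0.19), with 26.9 ± 4.49 CPM for C, 34.2 ± 7.58 for VE, 37.6 ± 12.1 for HT and 29.1 ± 7.17 for VEHT. Among 12 biogenesis regulators PPARGC1B, a coactivator of ERR receptors, read 11.3 ± 6.36 CPM in C and 6.89 ± 1.22 CPM in VE (log2 fold change 0.73 ± 0.36, edgeR q = 0.45) and had 0.90 ± 0.47 for the interaction (q = 0.39). Among 24 genes of DNA and RNA upkeep TOP1MT, the mitochondrial topoisomerase, read 9.14 ± 4.74 CPM in C and 14.8 ± 3.93 CPM in VE (log2 fold change -0.73 ± 0.32, edgeR q = 0.39). TRMT10C, a part of mitochondrial RNase P, had -0.50 ± 0.28 for the interaction (edgeR q = 0.42). OGDH of the TCA cycle had 0.34 ± 0.25 in C vs VE (edgeR q = 0.65) and 0.68 ± 0.38 for the interaction (q = 0.42). PDSS1, which makes the side chain of coenzyme Q, had 0.53 ± 0.38 in C vs VE (edgeR q = 0.65), and COQ5, a methyltransferase of the same route, 0.49 ± 0.29 for the interaction (q = 0.45). DMAC2L, a coupling factor of ATP synthase, had -0.40 ± 0.29 in C vs VE (edgeR q = 0.64) and -0.49 ± 0.45 for the interaction (q = 0.66).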

How the data were processed

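RNA of subcutaneous fat was sequenced in pairs from 24 piglets. The authors trimmed the reads with Trim Galore, aligned them with HISAT to the Sscrofa11.1 genome, and the deposited values are raw counts by HTSeq for each Ensembl gene; the submitters' processing notes name HISAT2, and versions, strand setting and annotation release are not given in the sources used here. Entries without a gene (no feature 8.31% to 16.5%, ambiguous 1.48% to 2.74%) entered neither library sizes nor tests. Library columns carry the animal number and diet.

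Names were taken from a table of pig gene names (14857 identifiers named), and positions, transcript lengths and sequences from RefSeq Sscrofa11.1 (61 of 75 members matched). Members and lists were chosen with earlier results of these data known. Genes at 0 in 75% or more of the libraries compared were dropped. edgeR 4.0.16 (quasi-likelihood, TMM) in R 4.3.3 was run on the 12 libraries of each pair and, for the factors, on all 24, with p adjusted over all genes by the Benjamini-Hochberg method (q). A call needed q of at most 0.10 and a fold change of at least 1.5, for the interaction q alone. The vitamin E and hydroxytyrosol effects are the higher over the lower dose, and the interaction is (VEHT over HT) less (VE over C) on the log2 scale. DESeq2 1.42.0 and limma 3.58.1 (voom with quality weights) were alternatives. CPM and log2 CPM (prior count 0.5) were scaled to total gene counts, without TMM factors. The chain was run on simulated data with planted changes to check it for errors, and the outcome is not given here. That run does not measure which changes could be called among the members. Named members were the mitochondrial genes, the complex IV and c subunit isoforms, the 2 of smallest p in each direction of a comparison, those of highest and lowest mean log2 CPM of a complex, the extremes of SD, and from each list the gene of smallest p in C vs VE and in the interaction. COX5B, NDUFA4, NDUFA5, NDUFS3 and NDUFS6 were named outside this rule, after their values were seen. Alternatives were other normalizations, filters, tests and thresholds, each library left out, and, chosen after seeing the data, the muscle marker mean as covariate and the 3 immune-rich libraries left out. A result on 1 member is not reported here.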

Additional observations from a re-analysis of the deposited data

Results flagged for a closer look

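In 12 measures, each within the 4 diets, the highest and lowest library were compared with the nearest other, and 8 of the 48 groups of 6 had a library whose gap to the nearest other, as a part of the range, was above Dixon's 95% limit. Chance flags about 1 in 20 groups, and the measures are not independent. C piglet G025 was far above the other C piglets in 6 of them: the mitochondrial share (22.6% of gene counts, nearest 6.996%), the nuclear member share (1.15%, nearest 0.700%), COX6A2 (240.0 CPM, nearest 62.1), COX7A1 (127.4 CPM, nearest 24.2), COX4I1 (647 CPM, nearest 451) and ND6 (357 CPM, nearest 75.7). The muscle marker mean of this library was 10.6 log2 CPM. C piglet G047 was high in COX7A2 (76.7 CPM, nearest 53.9) and VEHT piglet G141 in COX8A (146 CPM, nearest 87.3), and both were among the 3 libraries rich in immune transcripts.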

How the results depend on the processing

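The number of members called was 0 under every alternative that was run: RLE factors, mitochondrial genes left out of library sizes, no filter, filterByExpr, DESeq2, limma voom with quality weights, a q of at most 0.05, no fold change limit, a fit of all 24 libraries for the pairs, and each library left out in turn. It was also 0 without G041, G047 and G141 and with the muscle marker mean as covariate, both chosen after seeing the data. Part of these counts was fixed by the fits. Over all genes the lowest edgeR q was 0.11 in the pairs (C vs VE) and 0.35 for the main effects (vitamin E). There neither a stricter q nor the lack of a fold change limit could give a call. In the pairs and for the interaction limma voom and the covariate fit called 0 of all genes. The share of all genes called was not taken for the other normalizations and filters or the fit of all 24 libraries. Nor was it taken for the fits with libraries left out. Those counts of 0 therefore show nothing particular to the members. No paired analysis was possible because the library columns carry animal numbers and not the replicate numbers of the labels. The paper describes no pairing of piglets between diets either. Each piglet came from its own litter, and the sows were allotted to separate diet groups. With 6 animals a group and standard errors near 0.3 on the log2 scale, differences under the size of the calls may not be seen. Larger ones can go uncalled too. In C vs VE edgeR did not call the plasma cell marker JCHAIN (log2 fold change 5.91 ± 1.53 SE, q = 0.31). Nor did it call the macrophage marker LYZ (4.29 ± 1.30, q = 0.31). The count of 0 members therefore does not show that differences above the fold change limit were absent.

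For fold changes library totals without factors were also run. The mitochondrial minus nuclear mean log2 CPM taken as a median over members was 6.13 for VEHT, 6.198 for HT, 5.98 for VE and 5.80 for C. With libraries left out in turn, the mitochondrial median of C vs HT ran from -0.65 to 0.15. Of the members named for their p, limma voom turned the sign of NDUFA2 (-0.11) and COX7A2 (-0.056) in C vs VE, COX4I2 in HT vs VEHT (-0.056), and ND6 (0.23) and COX7A2L (0.038) for vitamin E. Without G041, G047 and G141 the sign turned for NDUFA2 (-0.11) and COX7A2 (-0.092) in C vs VE, COX4I2 in HT vs VEHT (-0.067) and for the interaction (0.023), and COX7A2L for vitamin E (0.052). With the muscle covariate it turned for COX6A1 in C vs VEHT (-0.12), and for ND6 (0.10) and COX7A2L (0.026) for vitamin E. Leaving out single libraries gave -0.019 to 0.19 for COX7A2 in C vs VE, -0.026 to 0.28 for COX6A1 in C vs VEHT, -0.067 to 0.23 for COX4I2 in HT vs VEHT, -0.36 to 0.049 for NDUFB4 in VE vs HT, and for vitamin E -0.055 to 0.047 for COX7A2L and -0.18 to 0.53 for ND6. None of these values was called. The cause was not tested.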
